A study of Rattus norvegicus with 6 samples.

Results

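The genes described here encode the machinery of DNA replication and cell division, measured in rat liver. They were chosen by name as 40 genes, and every non-control array probe whose RefSeq accession belongs to one of them was taken. Of these, 36 had a probe on the array and 31 had a probe bright enough to be tested, out of 10609 genes tested. The tested genes were 13 that act in DNA replication, 14 that act in mitosis, and 4 cyclins and kinases of cell cycle entry. Mcm5, Mki67, Top2a and Bub1b had no probe matched by accession. Cdc6, Cdt1, Aurkb, Cenpf and Ccne2 had probes that were not well above background on all 3 arrays of either group, so no difference is given for them. Of the 31 tested genes, 30 were well above background on all 6 arrays, and Gins2 was so on all 3 CO2/O2 arrays and on 2 of 3 isoflurane arrays.

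Liver RNA came from 6 male Sprague-Dawley (Crl:CD(SD)) rats, an outbred stock, aged 9 weeks, with 1 rat per array. Before they were killed, 3 rats were anaesthetised with isoflurane, an inhaled anaesthetic, and 3 with CO2/O2, a gas mixture that renders rodents unconscious. All 6 had received corn oil at 5 mL/kg/day, for 3 days according to the design text and for 9 weeks according to the treatment protocol, and no rat was sampled without anaesthesia. The comparison asks whether the kind of anaesthesia alters hepatic expression. On each array 53.4% to 62.3% of the probes were well above background, the 75th percentile of the signal lay between 912 and 998 intensity units, and the 8 hepatocyte markers averaged 6.28 to 6.56 log2 units above that percentile. Isoflurane rats 2 and 3 lay on row 2 of the slide and the other 4 arrays on row 1. The number of arrays limits the precision, and no depth of reads applies to this assay.

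The cell cycle is run by waves of transcription. Genes for DNA replication are switched on by E2F factors before S phase, and genes for mitosis are switched on later by complexes that act through CCAAT boxes and through an element called the cell cycle genes homology region, or CHR. Most hepatocytes of an adult liver are out of the cycle, and both programmes are best known in this organ from regeneration after partial hepatectomy. Because whole tissue was measured, more cells of a dividing kind and more RNA per cell cannot be told apart.

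No cell cycle gene passed a test of isoflurane against CO2/O2. Of the 31 genes tested, 0 passed an adjusted p of 0.05 in limma, beside 0 of all 10609 genes (0%) and 3 of 34637 probes (0.00866%). At an unadjusted p under 0.05 the count was also 0 of 31, whereas 7.58% of all genes were called. In 0 of 31 genes did the 3 rats of one group all lie above the 3 of the other, against 14.2% of all genes (6.01% higher and 8.16% lower after isoflurane). The smallest adjusted p of any of the 31 was 0.691 (limma). The design cannot show small differences in these genes, which varied more from rat to rat than most. Their median range over the 6 arrays was 0.82 on the log2 scale, against 0.41 for all genes, and the median 95% interval reached 0.51 to either side of the difference, against 0.29. For 24 of the 31 the interval lay wholly within a change of 2-fold in either direction, a smaller share than the 90.5% of all genes.

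All levels below are the log2 signal of a probe minus the 75th percentile of its array. A level says nothing of one probe against another, and each difference is the isoflurane mean less the CO2/O2 mean of these log2 levels, with its standard error (limma, n = 3 rats per group). By direction alone, 23 of 31 genes had a positive difference and 8 a negative one, with a median of 0.16, while 47.1% of all genes were positive and their median was -0.01. The mitotic genes had 13 positive differences and 1 negative one, with a median of 0.24. The replication genes had 7 positive and 6 negative, with a median of 0.01. The 4 entry genes had 3 positive and 1 negative, with a median of 0.17. These medians depended on a single animal: without isoflurane rat 2 the mitotic median was -0.05 and that of all 31 genes was -0.07, with 12 positive differences and 19 negative ones. Without isoflurane rat 1 the median of all 31 was 0.30, with 30 positive differences and 1 negative one. With slide row as a block, which leaves isoflurane rat 1 as the only isoflurane array set against the CO2/O2 arrays of its own row, the medians were -0.12 for all 31, -0.10 for the mitotic genes and -0.19 for the replication genes. Row 2 held only isoflurane arrays, so it gives no value of its own.

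**Figure D1:**
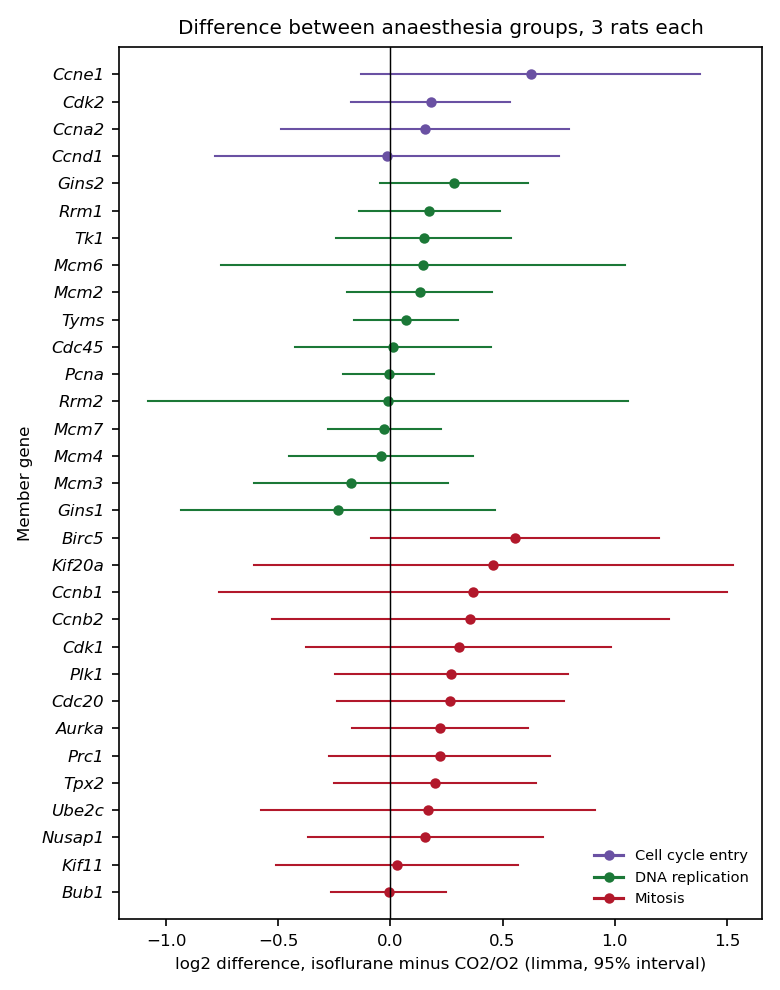
Difference between the anaesthesia groups for each tested gene, with entry genes in purple, replication genes in green and mitotic genes in red. Points are the log2 difference, isoflurane minus CO2/O2, and bars its 95% interval (limma, 3 rats each): all 31 intervals cross 0, and the mitotic genes have 13 points above 0 and 1 below.

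Most of the genes were high in the same animal. Isoflurane rat 2 held the highest level of 22 of the 31 genes, whereas it was the highest array for 15.3% of all genes. All 31 were above their own mean there. Isoflurane rat 3 was the highest array for 3 of 31, against 21% of all genes. Isoflurane rat 2 was the highest for 12 of 14 mitotic genes, 8 of 13 replication genes and 2 of 4 entry genes. At the other end isoflurane rat 1, of the same treatment group, was the lowest array for 15 of 31, against 12.3% of all genes. The 2 rats at the extremes thus shared their anaesthesia. The rats after isoflurane also spread more: the SD was larger in that group for 25 of 31 genes, against 60.9% of all genes. For the mitotic genes the median SD was 0.12 after CO2/O2 and 0.45 after isoflurane, and for the replication genes it was 0.19 and 0.23.

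**Figure D2:**
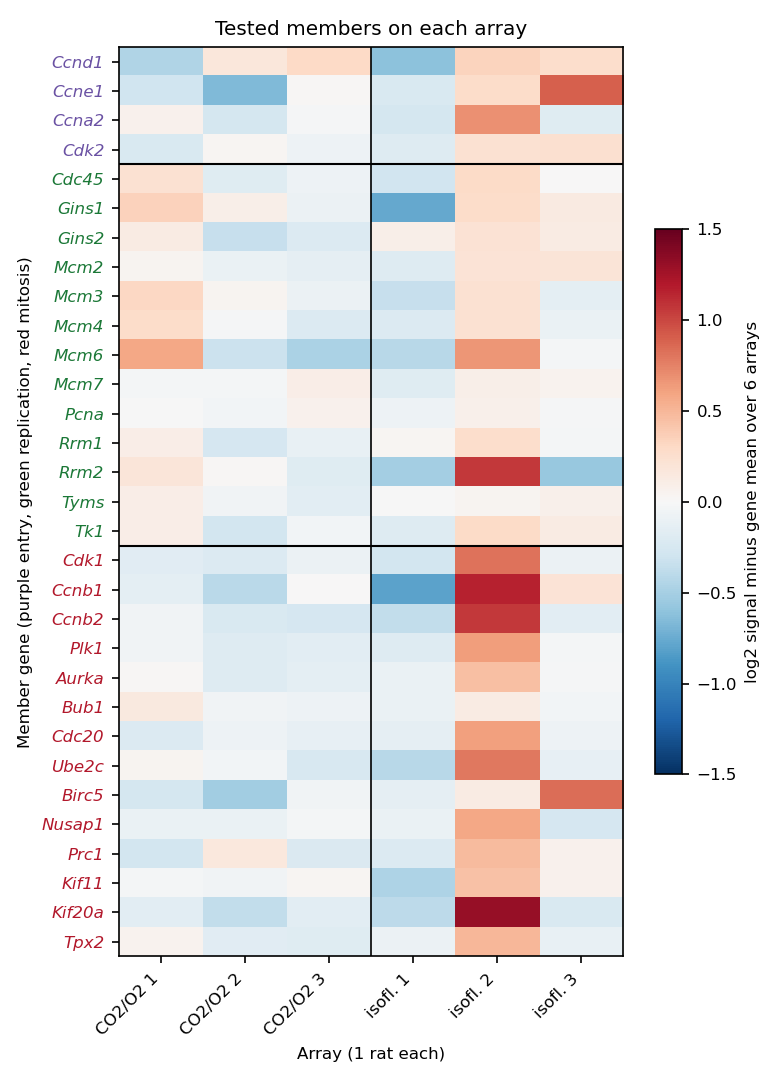
Level of each of the 31 tested genes on each of the 6 arrays, coloured by its log2 distance from the gene's own mean over the arrays. Rows are grouped into entry, replication and mitotic genes and columns into CO2/O2 and isoflurane rats; the red column is isoflurane rat 2, where all 31 genes lie above their mean.

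The kinase and the cyclins that start mitosis were each high in that rat. Cdk1, the catalytic subunit of mitosis-promoting factor, had levels of -0.77, -0.82 and -0.69 in the CO2/O2 rats and -0.88, 0.21 and -0.70 in the isoflurane rats. One rat stood at 1.98-fold the median of the other 5, which lay close together, and the groups overlapped (difference 0.30 ± 0.28, limma adjusted p = 0.830). Ccnb1, the cyclin that binds Cdk1, had -2.75, -3.01 and -2.60 after CO2/O2 and -3.41, -1.45 and -2.40 after isoflurane. The highest and the lowest of its 6 levels, 3.88-fold apart, were both isoflurane rats, and the difference was 0.37 ± 0.47 (limma adjusted p = 0.879). Ccnb2, the second B-type cyclin, had -3.44, -3.62 and -3.65 after CO2/O2 and -3.76, -2.34 and -3.55 after isoflurane. Isoflurane rat 2 was again apart, at 2.43-fold the median of the others.

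Genes of the spindle and of mitotic exit followed. Kif20a, a kinesin of the central spindle and cytokinesis, had -2.22, -2.42 and -2.21 after CO2/O2 and -2.45, -0.75 and -2.28 after isoflurane. Its level in isoflurane rat 2 was 2.88-fold the median of the other 5, which was the highest such ratio of the 31 genes, while the group difference was 0.46 ± 0.44 (limma adjusted p = 0.838). Cdc20, an activator of the anaphase-promoting complex, had -1.22, -1.09 and -1.14 after CO2/O2 and -1.16, -0.40 and -1.09 after isoflurane. Ube2c, the ubiquitin-conjugating enzyme of the same complex, had -3.13, -3.22 and -3.41 after CO2/O2 and -3.59, -2.38 and -3.29 after isoflurane. In both genes 5 rats were near each other and isoflurane rat 2 was above them, by 1.67-fold and 1.89-fold over the median of the rest. Plk1, a kinase needed for spindle assembly, had -1.71, -1.85 and -1.82 after CO2/O2 and -1.85, -1.03 and -1.68 after isoflurane (0.27 ± 0.22, limma adjusted p = 0.801). Aurka, a kinase of the spindle poles, had -0.59, -0.80 and -0.75 after CO2/O2 and -0.71, -0.15 and -0.62 after isoflurane (0.22 ± 0.16, limma adjusted p = 0.786). The second tested probes of Plk1 and Aurka were also highest in isoflurane rat 2, at -2.44 and -2.47, so the height of that rat was seen at more than 1 probe. Nusap1, Prc1, Tpx2 and Kif11, which bundle microtubules or drive the spindle, were highest in the same rat, at 1.38-fold to 1.61-fold the median of the other 5.

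Not every mitotic gene shared the pattern. Birc5, or survivin, a subunit of the chromosomal passenger complex, had -1.85, -2.10 and -1.65 after CO2/O2 and -1.72, -1.46 and -0.75 after isoflurane. Here isoflurane rat 3 was the highest, and isoflurane rat 1 lay inside the CO2/O2 range. Its difference of 0.56 ± 0.27 was the largest of the mitotic genes (95% interval -0.09 to 1.20, limma adjusted p = 0.691). Bub1, a spindle checkpoint kinase, had -1.63, -1.83 and -1.85 after CO2/O2 and -1.87, -1.65 and -1.81 after isoflurane. At this probe CO2/O2 rat 1 was highest and isoflurane rat 1 lowest (difference -0.01 ± 0.11). A second tested probe was highest in isoflurane rat 2, at -2.20, and lowest in isoflurane rat 1, at -2.65, so the probes differ in the top rat.

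**Figure D3:**
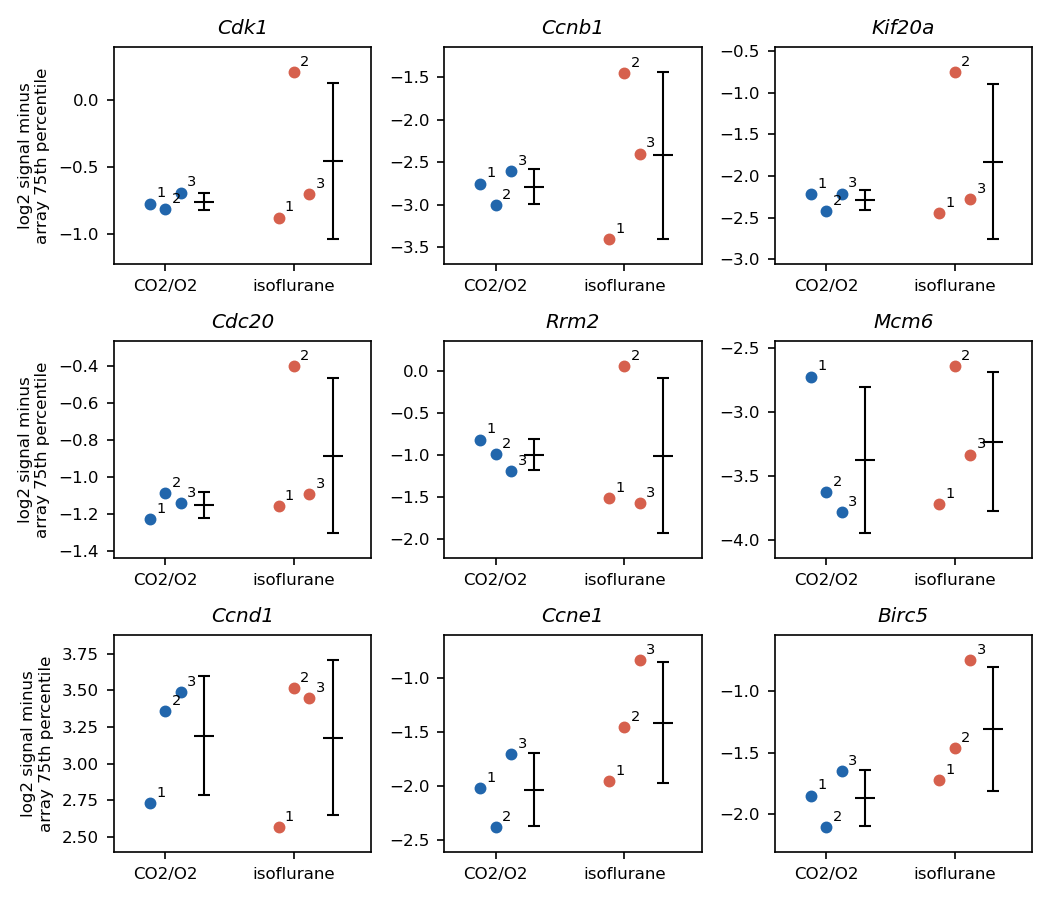
Levels of 9 genes in each rat, as log2 signal minus the array's 75th percentile, with CO2/O2 rats in blue and isoflurane rats in red, numbered 1 to 3; each panel has its own vertical scale. Black marks are the mean and SD (n = 3): Cdk1, Ccnb1, Kif20a, Cdc20 and Rrm2 have 1 high rat (isoflurane 2), Mcm6 has a pair (CO2/O2 1 and isoflurane 2), Ccnd1 has 2 low rats, and Ccne1 and Birc5 are highest in isoflurane rat 3.

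The 13 tested replication genes had a second high animal. Among them 8 of 13 (61.5%) had CO2/O2 rat 1 and isoflurane rat 2 as their 2 highest arrays, in either order, against 4.69% of all genes and 5 of 14 mitotic genes. A further list of replication genes shared this to a lesser degree: the same pair was on top in 5 of 22 (22.7%). It was on top in 7 of 25 (28%) of a further list of mitotic genes. Averaged over each class, the distance from the gene's own mean in CO2/O2 rat 1 was 0.18 for replication genes and -0.09 for mitotic genes. In isoflurane rat 2 it was 0.30 and 0.65. The difference between the classes, replication minus mitotic, was thus 0.27 in CO2/O2 rat 1 and -0.35 in isoflurane rat 2, and it stayed between -0.02 and 0.06 in the other 4 rats. The further lists matched this in isoflurane rat 2, with means of 0.07 for replication and 0.59 for mitotic genes. The match was weaker elsewhere: in CO2/O2 rat 1 the means were 0.07 and -0.01, a smaller gap of the same sign. In isoflurane rat 1 they were -0.01 and -0.22, where the 13 and 14 genes lay together. With isoflurane rat 2 set aside, CO2/O2 rat 1 was the highest of the remaining 5 for 9 of 13 replication genes and 5 of 14 mitotic genes. The group medians gave a replication minus mitotic value of -0.23, which was -0.03 without isoflurane rat 2. All these comparisons of rats were read from the data after the fact and carry no test.

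**Figure D4:**
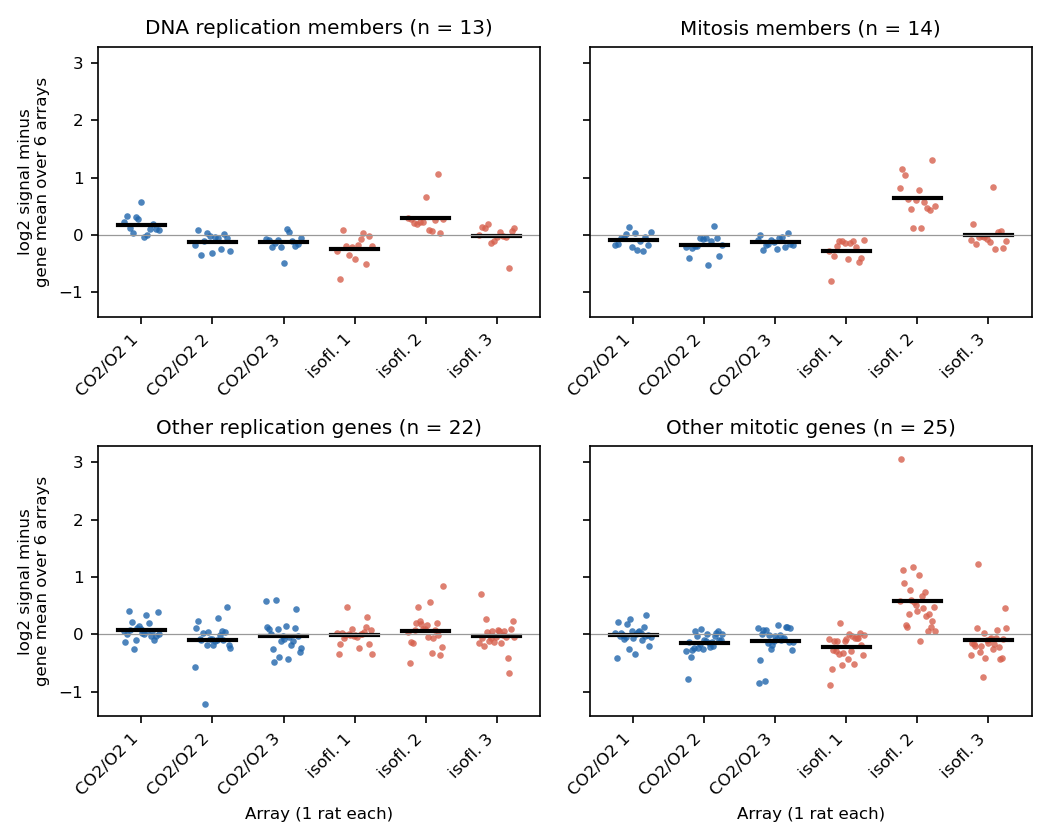
Distance of each gene from its own mean over the 6 arrays (log2), by array, for the replication and mitotic genes and for 2 further lists of replication and mitotic genes; CO2/O2 rats are blue, isoflurane rats red, and black lines are means. Both mitotic panels are raised in isoflurane rat 2 (means 0.65 and 0.59), and the 13 replication genes are raised in CO2/O2 rat 1 and isoflurane rat 2 (0.18 and 0.30).

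Rrm2 and Mcm6 had the widest ranges of the replication genes. Mcm6, a subunit of the replicative MCM helicase, had -2.72, -3.62 and -3.78 after CO2/O2 and -3.72, -2.64 and -3.33 after isoflurane. The rat at -2.72 and the rat at -2.64 belonged to different groups, so the difference was 0.15 ± 0.37 (limma adjusted p = 0.951). Rrm2, the small subunit of ribonucleotide reductase, which makes deoxyribonucleotides, had -0.82, -0.99 and -1.19 after CO2/O2 and -1.51, 0.06 and -1.57 after isoflurane. Isoflurane rat 2 stood apart, as in many mitotic genes, at 2.37-fold the median of the others, and CO2/O2 rat 1 was next. The other isoflurane rats lay below every CO2/O2 rat, unlike in Cdk1 or Kif20a. The Rrm2 difference was -0.01 ± 0.44 (limma adjusted p = 0.997). A second tested probe of Rrm2 bore this out only in part: isoflurane rat 2 was highest at -3.38, close to CO2/O2 rat 2 at -3.46, and isoflurane rat 3 lay within the CO2/O2 range. Rrm1, the large subunit of the same enzyme, had -1.86, -2.20 and -2.06 after CO2/O2 and -1.92, -1.69 and -1.99 after isoflurane (0.17 ± 0.13, limma adjusted p = 0.789). Its other tested probe gave a difference of -0.07, opposite in sign.

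The other helicase genes and their partners also overlapped between groups. Mcm2 had -1.23, -1.37 and -1.40 after CO2/O2 and -1.47, -1.06 and -1.08 after isoflurane, so 2 isoflurane rats were above and 1 below the CO2/O2 range (0.13 ± 0.13, limma adjusted p = 0.848). A dimmer tested probe of Mcm2 had its lowest level, -4.49, in isoflurane rat 2, but that spot was not well above background. The third tested probe was highest in isoflurane rat 3, at -2.72, so the Mcm2 probes did not rank the rats alike. Mcm3 had -0.21, -0.49 and -0.61 after CO2/O2 and -0.87, -0.30 and -0.67 after isoflurane (-0.17 ± 0.18, limma adjusted p = 0.846), with CO2/O2 rat 1 and isoflurane rat 2 on top. Its 2 other tested probes gave 0.03 and 0.07, so its sign depends on the probe. Gins2, a subunit of the GINS complex that activates the helicase, had -4.22, -4.69 and -4.55 after CO2/O2 and -4.26, -4.13 and -4.23 after isoflurane. That difference, 0.28 ± 0.14, was the largest of the replication genes (95% interval -0.04 to 0.61, limma adjusted p = 0.691), from a dim probe. Cdc45 and Gins1, the remaining helicase partners, had differences of 0.01 ± 0.18 and -0.23 ± 0.29, and Gins1 had its lowest level, -2.62, in isoflurane rat 1. Mcm4 and Mcm7 had differences of -0.04 ± 0.17 and -0.03 ± 0.10, and the highest array was CO2/O2 rat 1 for Mcm4 and CO2/O2 rat 3 for Mcm7. The other tested probe of Mcm7 gave 0.10, opposite in sign, and was highest in isoflurane rat 2, and that of Mcm4 gave -0.01 and was highest in CO2/O2 rat 2.

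Pcna hardly varied. It encodes the sliding clamp of the DNA polymerases and had 1.30, 1.26 and 1.36 after CO2/O2 and 1.23, 1.38 and 1.29 after isoflurane, a range of 1.11-fold over all 6 rats. The difference was -0.01 ± 0.08, with a 95% interval of -0.21 to 0.19. Of the 31 genes it had the narrowest range. Tyms, thymidylate synthase, ranged 1.20-fold (0.07 ± 0.10). Tk1, the cytosolic thymidine kinase, varied more, over 1.48-fold, and both of its tested probes were highest in isoflurane rat 2 (0.15 ± 0.16).

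The entry genes differed from one another in which rats were high. Ccnd1, the D-type cyclin that answers growth signals, had 2.73, 3.36 and 3.49 after CO2/O2 and 2.57, 3.52 and 3.45 after isoflurane. It was low in CO2/O2 rat 1 and isoflurane rat 1 and alike in the other 4, and its other 2 tested probes gave the same 2 low rats, at 2.39 and 2.11 and at 1.34 and 0.92. The group difference was -0.02 ± 0.32 (limma adjusted p = 0.995). CO2/O2 rat 1 was thus low for Ccnd1 and high for most replication genes. Ccne1, the E-type cyclin of S-phase entry, had -2.02, -2.39 and -1.71 after CO2/O2 and -1.95, -1.45 and -0.83 after isoflurane. As for Birc5, isoflurane rat 3 was the highest, and the difference of 0.63 ± 0.31 was the largest of all 31 genes (95% interval -0.13 to 1.38, limma adjusted p = 0.700). Ccna2, the A-type cyclin that serves S phase and early mitosis, had -2.62, -2.95 and -2.71 after CO2/O2 and -2.95, -2.00 and -2.87 after isoflurane (0.15 ± 0.27, limma adjusted p = 0.921). All 3 of its tested probes were highest in isoflurane rat 2. Cdk2, the kinase bound by cyclins E and A, had 0.38, 0.63 and 0.53 after CO2/O2 and 0.41, 0.83 and 0.84 after isoflurane (0.18 ± 0.15, limma adjusted p = 0.807), and a second tested probe gave -0.05.

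The sequences before the start sites are shown because the replication and mitotic genes differed in height in isoflurane rat 2, and the words by which the 2 waves are known can be looked for in them. Of the 40 genes, 31 were in the RefSeq promoter table of the build GRCr8, and these are not the same 31 as were tested. In the 250 bases before each start, 3 motifs were searched on both strands: the CCAAT box (CCAAT), the CHR (TTTGAA) and a core word of E2F sites in any of 4 forms (TTCCCGC as the first, TTGGCGC as the second, TTCGCGC as the third and TTGCCGC as the last). Overlapping matches were counted separately. Below, capitals mark the matches of any of these on either strand. Cdk1 (chr20:19265043-19265292, + strand) held 3 CCAAT boxes, 2 CHR words and 2 E2F words, and Cdc20 (chr5:137255800-137256049, - strand) held 2 CCAAT boxes and 1 CHR word.
Cdk1: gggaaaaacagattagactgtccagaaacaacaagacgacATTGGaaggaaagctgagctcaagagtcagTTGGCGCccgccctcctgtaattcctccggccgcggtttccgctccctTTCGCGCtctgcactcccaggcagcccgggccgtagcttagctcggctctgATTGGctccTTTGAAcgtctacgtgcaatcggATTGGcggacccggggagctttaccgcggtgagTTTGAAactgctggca
Cdc20: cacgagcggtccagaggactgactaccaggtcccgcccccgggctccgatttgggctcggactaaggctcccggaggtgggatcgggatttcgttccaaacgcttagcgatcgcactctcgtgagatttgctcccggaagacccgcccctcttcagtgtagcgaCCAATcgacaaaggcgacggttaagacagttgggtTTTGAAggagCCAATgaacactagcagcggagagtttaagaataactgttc
Mcm6 (chr13:42404353-42404602, - strand) held 2 CCAAT boxes, no CHR word and 4 E2F matches. These 3 promoters were picked after the values were seen.
Mcm6: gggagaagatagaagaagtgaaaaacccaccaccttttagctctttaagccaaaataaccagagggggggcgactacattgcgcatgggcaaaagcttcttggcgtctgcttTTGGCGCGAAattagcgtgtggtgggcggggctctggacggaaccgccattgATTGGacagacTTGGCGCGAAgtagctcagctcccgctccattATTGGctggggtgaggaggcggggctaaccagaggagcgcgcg
By a rule, the promoters of the 2 mitotic and the 2 replication genes with the largest moderated t are also shown, being Birc5 (chr10:103571896-103572145, + strand), Aurka (chr3:181560770-181561019, - strand), Gins2 (chr19:65548053-65548302, - strand) and Rrm1 (chr1:166235654-166235903, + strand). Birc5 held 1 CCAAT box and 1 CHR word, Rrm1 held 1 CCAAT box and 1 E2F word, Gins2 held 1 CCAAT box, and none of the words was in the window of Aurka. The Aurka window ends in a pyrimidine-rich stretch and cag, as introns do, so the start in the table may be an internal one and the window may not be the promoter.
Birc5: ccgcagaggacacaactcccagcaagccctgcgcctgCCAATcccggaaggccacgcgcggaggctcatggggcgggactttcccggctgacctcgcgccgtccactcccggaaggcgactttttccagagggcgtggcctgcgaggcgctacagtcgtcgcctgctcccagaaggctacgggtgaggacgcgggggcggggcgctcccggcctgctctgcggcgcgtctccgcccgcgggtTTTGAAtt
Aurka: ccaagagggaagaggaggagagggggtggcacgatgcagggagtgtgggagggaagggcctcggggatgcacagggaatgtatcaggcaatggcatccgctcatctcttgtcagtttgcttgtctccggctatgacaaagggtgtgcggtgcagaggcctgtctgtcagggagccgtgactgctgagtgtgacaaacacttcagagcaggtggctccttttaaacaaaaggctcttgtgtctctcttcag
Gins2: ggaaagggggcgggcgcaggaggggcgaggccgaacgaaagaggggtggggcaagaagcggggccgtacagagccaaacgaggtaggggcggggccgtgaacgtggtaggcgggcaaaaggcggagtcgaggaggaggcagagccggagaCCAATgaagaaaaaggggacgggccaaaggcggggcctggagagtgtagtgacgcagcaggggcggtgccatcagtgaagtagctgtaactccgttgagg
Rrm1: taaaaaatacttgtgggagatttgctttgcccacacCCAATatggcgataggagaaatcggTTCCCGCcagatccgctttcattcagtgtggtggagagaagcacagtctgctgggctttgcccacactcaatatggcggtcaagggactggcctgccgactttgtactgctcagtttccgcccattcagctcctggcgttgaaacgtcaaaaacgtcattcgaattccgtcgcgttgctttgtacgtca

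Over all promoters of the table, 27457 in number, a CCAAT box was found in 34.3%, a CHR word in 16% and an E2F word in 7.97%. Among the 16 mitotic promoters the counts were 13 (81.2%), 7 (43.8%) and 3 (18.8%). Among the 13 replication promoters they were 9 (69.2%), 1 (7.69%) and 7 (53.8%). These sets are not the tested genes. The mitotic promoters include the untested Mki67, Top2a, Bub1b and Cenpf and lack the tested Tpx2 and Ube2c. The replication promoters include the untested Cdt1 and Mcm5 and lack the tested Mcm4 and Rrm2. A CCAAT box together with a CHR word was present in 7 of 16 mitotic promoters and 0 of 13 replication promoters, beside 5.76% of all promoters. In the Cdk1 promoter the nearest CHR word began 16 bases before the start, and in that of Cdc20 it began 51 bases before. A match describes the letters only, and no binding was measured.

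Further genes of the same pathways were read from 4 lists. Of 44 other mitotic genes, 25 were tested, and 18 had a positive difference and 7 a negative one, with a median of 0.12 and 0 called at an unadjusted p under 0.05. Isoflurane rat 2 was their highest array in 20 of 25 (80%), beside 15.3% of all genes. Nuf2, a kinetochore protein, went furthest, with -4.27, -4.64 and -4.71 after CO2/O2 and -4.75, -0.80 and -4.02 after isoflurane. Outside isoflurane rat 2 these levels were about as low as those of the dim Gins2 probe, so the size of the gap is uncertain. Cdca3, which promotes mitotic entry, had -1.05 in isoflurane rat 2 against -2.75 to -2.20 in the other rats. Nuf2 and Cdca3 are named because of their values in that rat. Cenpa, the histone variant of centromeres, was highest in isoflurane rat 3 instead, at -2.16 against -4.20 to -3.26 elsewhere (0.71 ± 0.41, limma adjusted p = 0.734). Cks1b, a subunit of cyclin-dependent kinases, had 1.92, 1.82 and 1.96 after CO2/O2 and 1.96, 2.35 and 2.10 after isoflurane, with isoflurane rat 1 beside the CO2/O2 rats (0.24 ± 0.12, limma adjusted p = 0.709).

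Other replication genes did not share the height of isoflurane rat 2 to the same degree. Of 31 listed, 22 were tested, with 12 positive and 10 negative differences and a median of 0.02. Isoflurane rat 2 was the highest array in 8 of the 22 (36.4%), still a larger share than the 15.3% of all genes. Pola1, the catalytic subunit of DNA polymerase alpha, was the 1 gene of the list with an unadjusted p under 0.05, being lower after isoflurane, which was so for 4.85% of all genes. It had -4.06, -3.84 and -3.98 after CO2/O2 and -4.25, -4.20 and -4.14 after isoflurane, without overlap, but was well above background on only 1 of 3 isoflurane arrays (-0.24 ± 0.09, limma adjusted p = 0.652). Rfc5, a subunit of the clamp loader, had 0.17, -0.04 and 0.08 after CO2/O2 and 0.13, 0.32 and 0.22 after isoflurane, and the groups overlapped (0.15 ± 0.10, limma adjusted p = 0.752).

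Regulators of the cycle were centred near 0. Of 24 listed, 17 were tested, with 9 positive and 8 negative differences, a median of 0.05, and 0 at an unadjusted p under 0.05. The groups did not overlap for 5 of the 17, with 4 higher and 1 lower after isoflurane, beside 14.2% of all genes. E2f1, an activator of replication genes, had its 2 highest levels in the same rats as most of the 13 tested replication genes, at -1.48 in CO2/O2 rat 1 and -1.17 in isoflurane rat 2, with -1.59 in isoflurane rat 3 and -2.27 to -2.02 in the rest. Foxm1, an activator of mitotic genes, showed no such height, with -1.40 in isoflurane rat 2 and -1.57 to -1.36 in the other rats. E2f1 and Foxm1 were likewise picked with their values known. The pair of CO2/O2 rat 1 and isoflurane rat 2 was on top in 1 of the 17 regulators (5.88%), beside 4.69% of all genes. E2f3, another E2F gene, had CO2/O2 rats 2 and 3 on top. Cdk4, the partner of Ccnd1, had 2.30, 2.17 and 2.33 after CO2/O2 and 2.41, 2.45 and 2.56 after isoflurane (0.20 ± 0.09, limma adjusted p = 0.670). E2f7, a repressor of the E2F family, had -3.83, -3.82 and -4.01 after CO2/O2 and -3.42, -3.77 and -3.69 after isoflurane (0.26 ± 0.12, limma adjusted p = 0.683). In both genes all isoflurane rats were above all CO2/O2 rats, and neither was at its highest in isoflurane rat 2. All 12 listed inhibitors of proliferation were tested, with 7 positive and 5 negative differences and a median of 0.04, and the groups did not overlap for 2, both higher after isoflurane. Btg2, an antiproliferative gene of the immediate early response, had 0.13, 0.41 and 0.36 after CO2/O2 and 0.46, 1.01 and 0.89 after isoflurane. It was the 1 inhibitor with an unadjusted p under 0.05, being higher after isoflurane, as were 2.72% of all genes, and its adjusted p was 0.615 in limma (0.48 ± 0.17). Its relative Btg1 had 5.63, 5.51 and 5.72 after CO2/O2 and 5.54, 5.35 and 5.41 after isoflurane, and the groups overlapped (-0.19 ± 0.10, limma adjusted p = 0.712).

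Markers of other cells were read beside the cell cycle genes, since dividing blood or immune cells carry the same transcripts. No such list had its highest average in isoflurane rat 2. The 11 Kupffer cell markers averaged 2.67 in that rat, against 2.85 to 3.23 after CO2/O2 and 2.65 and 2.79 in the other isoflurane rats. The 8 tested lymphocyte markers averaged -1.50 there, against -1.47 to -1.16 after CO2/O2 and -2.00 and -1.46 after isoflurane. Cd3e was well above background on only some arrays of each group and was not tested. The 8 tested erythroid markers averaged 1.07 in isoflurane rat 2, against 1.08 to 1.39 and 0.62 and 1.00. The 4 tested neutrophil markers averaged -1.53 there, against -1.17 to -0.55 and -1.59 and -0.76. Elane and Ngp were not well above background on all 3 arrays of either group and were not tested. Of the 8 erythroid markers, 2 were highest and 2 lowest in isoflurane rat 2. Epb42 was -3.51 there and -4.46 to -3.92 elsewhere, and Ahsp was -0.02 there and -1.72 to -0.11 elsewhere. A second tested probe of Ahsp was highest in CO2/O2 rat 3, at -0.79, against -0.82 in isoflurane rat 2. Tfrc was 2.02 there and 2.64 to 3.27 elsewhere. Klf1, from a dim probe, was -5.18 there and -5.04 to -4.24 elsewhere. The part of blood and immune cells in the height of the cell cycle genes was not tested. In CO2/O2 rat 1, where the replication genes were high, the Kupffer cell, lymphocyte, erythroid and cholangiocyte averages were each the highest of the 6 rats. Their part in the height of the replication genes was not tested.

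Averages of markers of liver cells were not highest in isoflurane rat 2 either. The 5 tested cholangiocyte markers averaged -2.43 in isoflurane rat 2 (-2.48 to -1.91 in the others), the 4 tested endothelial markers 1.50 (1.60 to 1.76) and the 6 stellate markers 1.25 (1.02 to 1.36). The stellate average takes the brightest probe of Col1a1, a fibrillar collagen gene, but both of its other tested probes stood high in isoflurane rat 2, at 0.99 against -0.30 to 0.14 and at 0.68 against -0.61 to -0.05. Col3a1, another collagen gene, was also highest there, at 4.79 against 4.32 to 4.70. At their brightest probes, 1 of the 6 stellate markers was highest in that rat and 1 lowest. Pdgfrb was -0.03 there, against 0.11 to 0.36 after CO2/O2 and 0.16 and -0.42 in isoflurane rats 1 and 3. Lrat was 1.66 there, against 1.63 to 1.91 elsewhere. Whether stellate cells have a part in the height of the cell cycle genes was not tested. The 8 hepatocyte markers averaged 6.28, the lowest of the 6 rats, but 2 of them were highest there and 3 lowest. Tat, tyrosine aminotransferase, was 2.15 in that rat against 2.65 to 4.06 elsewhere. Serpina1 was 9.18 against 8.99 to 9.14, and Hnf4a at its brightest probe 0.38 against -0.45 to 0.35. The median distance of the 8 from their own means was -0.03 in that rat, but -0.05 in CO2/O2 rat 1 and isoflurane rat 3. Isoflurane rat 2 was also the array with the smallest share of probes well above background, 53.4%. Most of the cell cycle genes were dim: ordered by mean level and split into 4 equal bins, 16 of 31 fell in the lowest bin of genes. In that bin 16.0% of genes were highest in isoflurane rat 2, beside 13 of the 16 cell cycle genes in it.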

How the data were processed

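Liver RNA of 6 rats was hybridised to 1-colour arrays on 1 slide with 1 scan time. Per the labels' protocols, 0.2 ug of RNA was labelled with the dye Cy3, and Agilent Feature Extraction 10.7 read the images, per the submitters' processing notes. The deposited spot values are intensity values on a linear scale, corrected for background per the file headers and not scaled between arrays. The authors' value table holds a ratio for each probe, which equalled that intensity divided by 1 number per array close to its 75th percentile (within 1%), with no centring; its column medians were 0.0864, 0.0881 and 0.0868 for CO2/O2 rats 1 to 3 and 0.0917, 0.0900 and 0.0905 for isoflurane rats 1 to 3.

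Here intensities were put on a log2 scale and the 75th percentile of each array, over 61657 non-control probes, was taken off, without the 177 spots marked as outliers; 0 were saturated. Of the probes, 27460 matched 1 RefSeq gene by accession, 0 matched several and 34197 matched none. Testing required a probe to be well above background on all 3 arrays in one or both groups, and used limma 3.58.1 (lmFit, eBayes, n = 3 against 3), with Benjamini-Hochberg adjustment over all 34637 tested. A gene took its brightest tested probe. The test was checked on simulated data with noise drawn independently for each probe and array. That check does not cover genes that rise together in 1 rat, as many did here. Plots used matplotlib 3.10.9 in Python 3.11.15. Replicate numbers were not taken to pair the rats. Deviations of equal numbers correlated at 0.11, 0.02 and 0.06, and those of unequal numbers at -0.09 to 0.04. With 3 rats per group these values cannot show whether the numbers pair rats.

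The genes and lists were chosen with earlier results of these data known. Values by rat are given for the 4 genes per class with the largest moderated t and the 2 with the widest range, and the 2 largest by t of each pathway list; other values by rat were chosen after they were seen. Alternatives were normexp correction of the median signal (offset 50), quantile normalization, median centring, the authors' table, other filters, outlier spots kept, eBayes with trend and robust, replicate and slide row blocks, the mean of a gene's probes, and leaving out each rat.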

Additional observations from a re-analysis of the deposited data

How the results depend on the processing

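No alternative brought any of the tested cell cycle genes past an adjusted p of 0.05 in limma, and their smallest adjusted p lay between 0.422 (without isoflurane rat 1) and 0.975. The median difference of the tested genes, 0.16, was -0.12 with slide row as a block, and -0.07 to 0.30 with a rat left out; that of the mitotic genes, 0.24, was -0.10 with slide row as a block and -0.05 to 0.41 with a rat left out, and that of the replication genes 0.01, with -0.08 to 0.16. Replication minus mitotic, -0.23, lay between -0.26 and -0.03 with a rat left out (-0.028 without isoflurane rat 2). Slide row as a block turned the sign of 16 of 31 differences, none of which had passed the test, and it rests on 1 isoflurane rat assumed to vary like the others. The replicate number as a block left the median at 0.16 and all signs as they were. Over all probes the count of calls, 3, was 5 with normexp correction or with trend and robust, 0 with the replicate block, 1 when dim probes were kept, 1 to 20 with a rat left out (20 without CO2/O2 rat 3, 17 without isoflurane rat 1, 5 without isoflurane rat 2, 1 without CO2/O2 rat 1 or isoflurane rat 3) and 2616 at an unadjusted p under 0.05. Median centring put all genes at -0.07 and the cell cycle genes at 0.10. Signal over background limits the set: 5 genes with a probe were too dim to test.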
